A study of Mus musculus with 12 samples.

Results

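The nuclear genes of oxidative phosphorylation were followed through the cell bodies and the neurites of cultured mouse sensory neurons. Members were chosen by name: every gene in the deposited tables whose symbol marks it as a subunit of complex I (Nduf genes), complex II (Sdha to Sdhd), complex III (Uqcr genes), complex IV (Cox4 to Cox8 genes) or ATP synthase, also called complex V (Atp5 genes). The pattern found 81 names, and leaving out 1 pseudogene gave 80 genes of the 17915 gene names in the tables. There were 37 genes of complex I, 4 of complex II, 8 of complex III, 14 of complex IV and 17 of complex V. All 80 had counts in both compartments and all 80 passed the filter on low counts. A few names are wider than the structure: Atp5s and Atp5sl match the pattern but are not subunits of the enzyme, Ndufa4 is now placed in complex IV, and Cox7a2l joins complexes into supercomplexes.

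The cells came from dorsal root ganglia (DRG), which hold the cell bodies of sensory neurons, of adult mice on the C57B6 background. Each culture came from 1 mouse and grew for 3 days on an insert with 1 µm pores, so that neurites grew through the pores while cell bodies (soma) stayed above. The genotypes were GAR+/+ (WT below) and GAR+/- (het below), which the series places in a study of nucleolin-deficient axons. Nucleolin is an RNA-binding protein, and GAR is the usual name of its glycine- and arginine-rich domain. There were 3 libraries each of WT soma, het soma, WT neurites and het neurites, 12 in all. No treatment other than culture separates the groups, and every library held all the RNA of its compartment, glia and other ganglion cells included. A change in bulk RNA cannot tell fewer cells of a type from less RNA per cell.

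Oxidative phosphorylation makes most of a neuron's ATP. Complexes I and II take electrons from NADH and succinate, complex III passes them to cytochrome c, and complex IV gives them to oxygen, and the proton gradient that complexes I, III and IV build drives ATP synthase. Most subunits are encoded in the nucleus and imported, a smaller part in mitochondrial DNA. Axons depend on mitochondria far from the nucleus, and mRNAs of nuclear-encoded mitochondrial proteins are known to occur in axons, where some are translated.

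Totals per library were 22232250 to 26335219 counts in WT soma, 22163752 to 32434916 in het soma, 14965973 to 25915003 in WT neurites and 18793693 to 26797243 in het neurites. Nucleolin mRNA (Ncl) was measured first, as CPM, the read count scaled for library size (mean ± SD, n = 3). In soma it stood at 231 ± 12.1 CPM for WT against 266 ± 21.1 for het, and in neurites at 400 ± 72.1 against 380 ± 46.9. Neither difference between genotypes passed (edgeR adjusted p = 0.697 in soma and 0.794 in neurites). Counts per gene do not show the allele, so these values are no check of the genotype labels. Het neurite library 3 stood apart: its summed level of 6 nucleus-retained long RNAs was 4859 CPM, the lowest of the 12, against 10155 and 8404 CPM in the other libraries of its group, and its summed level of members was the highest of the 12. The calls, the medians over members and by complex, and the relation to length in het neurites are given with and without it. Sums are given for each library. The nucleus-retained RNAs were not confined to soma, where libraries of both genotypes summed to between 8128 and 10710 CPM. Het neurite libraries 1 and 2 fell inside that range, as did WT neurite library 3 at 10194 CPM. WT neurite libraries 1 and 2 were lower, at 6285 and 7325 CPM. The part of nuclear RNA in the neurite values was not tested.

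What was counted differed between members. The deposited rows are transcripts, and 92.6% of the counts of the members lay on protein-coding transcripts, against 91.6% over all genes. A further 5.33% lay on transcripts with a retained intron. In 47 of 80 members at least 90% of the counts were on protein-coding transcripts, in 18 members less than 50%, and in 13 members retained-intron transcripts held more counts than coding ones. Cox4i1, the main form of a regulatory subunit of complex IV, had a mean of 237 counts per library, of which coding transcripts took 9.98%. Of the 372 transcripts annotated for member genes, 102 have no base of their own, and 20 of those were in a table, while 192 of the 270 transcripts with bases of their own were. For such genes a level is that of the transcripts listed, not of the gene's whole mRNA. The level of 1 gene was therefore compared between groups, and levels were compared between genes only where a gene has a single annotated transcript.

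**Figure D1:**
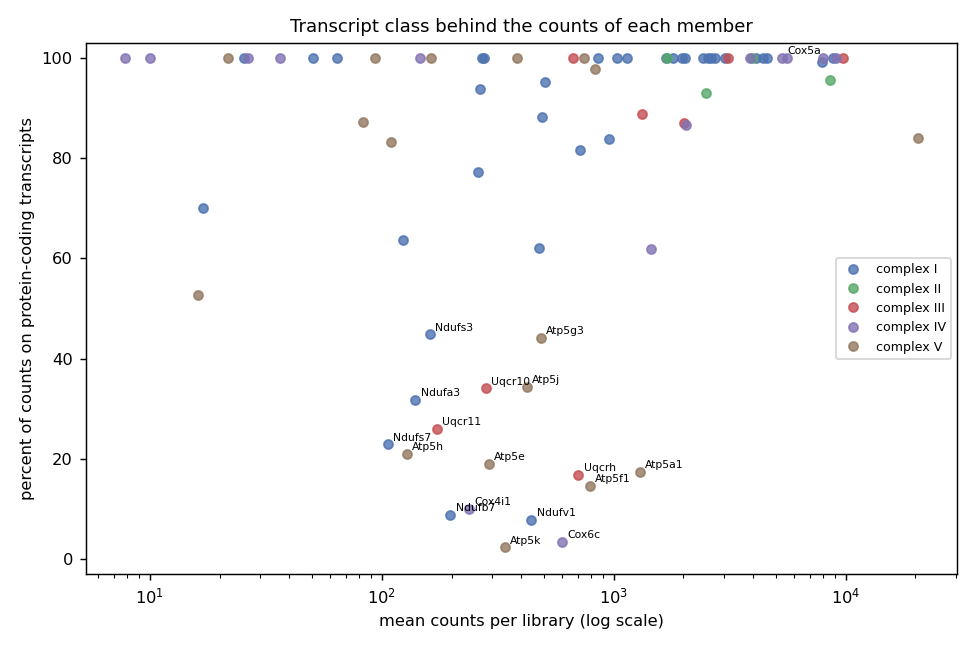
Share of each member's counts on protein-coding transcripts (percent, y axis) against its mean counts per library (log scale, x axis), 1 point per gene, coloured by complex. Members drawn under 50% are named, with Cox5a for comparison, 1 of the 80 members is not drawn, and the named ones include subunits of complexes I, III, IV and V but none of complex II.

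The summed level of complexes I and IV was above WT in every het neurite library, while those of complexes II, III and V overlapped between genotypes in neurites. For complex III this overlap depended on the scaling of libraries. The sums were not tested. Complex I, which oxidises NADH, summed in soma to 2440, 2456 and 2402 CPM for WT and 2617, 2617 and 2363 CPM for het. In neurites the sums were 2446, 2466 and 2427 CPM for WT and 2507, 2763 and 3064 CPM for het. All het neurite libraries lay above all WT neurite libraries, also without library 3, which was the highest, and library 1 lay within the range of het soma. Complex IV, cytochrome c oxidase, summed in neurites to 1465, 1484 and 1489 CPM for WT and 1556, 1704 and 1936 CPM for het, again without overlap. In soma its sums of 1525, 1426 and 1475 CPM for WT and 1602, 1606 and 1396 CPM for het overlapped, and the sum of het neurite library 1 lay among those of het soma.

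Complex II, succinate dehydrogenase, summed in neurites to 789, 763 and 698 CPM for WT and 716, 755 and 797 CPM for het. Complex III, which reduces cytochrome c, summed to 754, 764 and 719 CPM for WT and 752, 798 and 865 CPM for het. Complex V summed to 1180, 1190 and 1081 CPM for WT and 1099, 1193 and 1240 CPM for het. In these 3 complexes the neurite libraries of both genotypes overlapped. Scaled by library totals alone, complexes II and V still overlapped, but complex III did not. It then summed to 725, 722 and 718 CPM for WT and 758, 781 and 905 CPM for het. Most of the complex V sum was 1 gene, Atp5b, with a neurite mean of 899 CPM for WT and 901 CPM for het. The overlap of that sum therefore does not describe the other complex V genes. The mean sum of complex II was 690 CPM in WT soma and 695 in het soma, against 750 and 756 CPM in the neurites of the same genotypes. Over all 80 members the soma sums were 6479 ± 54.2 CPM for WT and 6679 ± 321 for het, and the neurite sums 6571 ± 137 for WT and 7248 ± 637 for het (mean ± SD, n = 3 each). The SD of het neurites was the widest of the 4 groups.

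**Figure D2:**
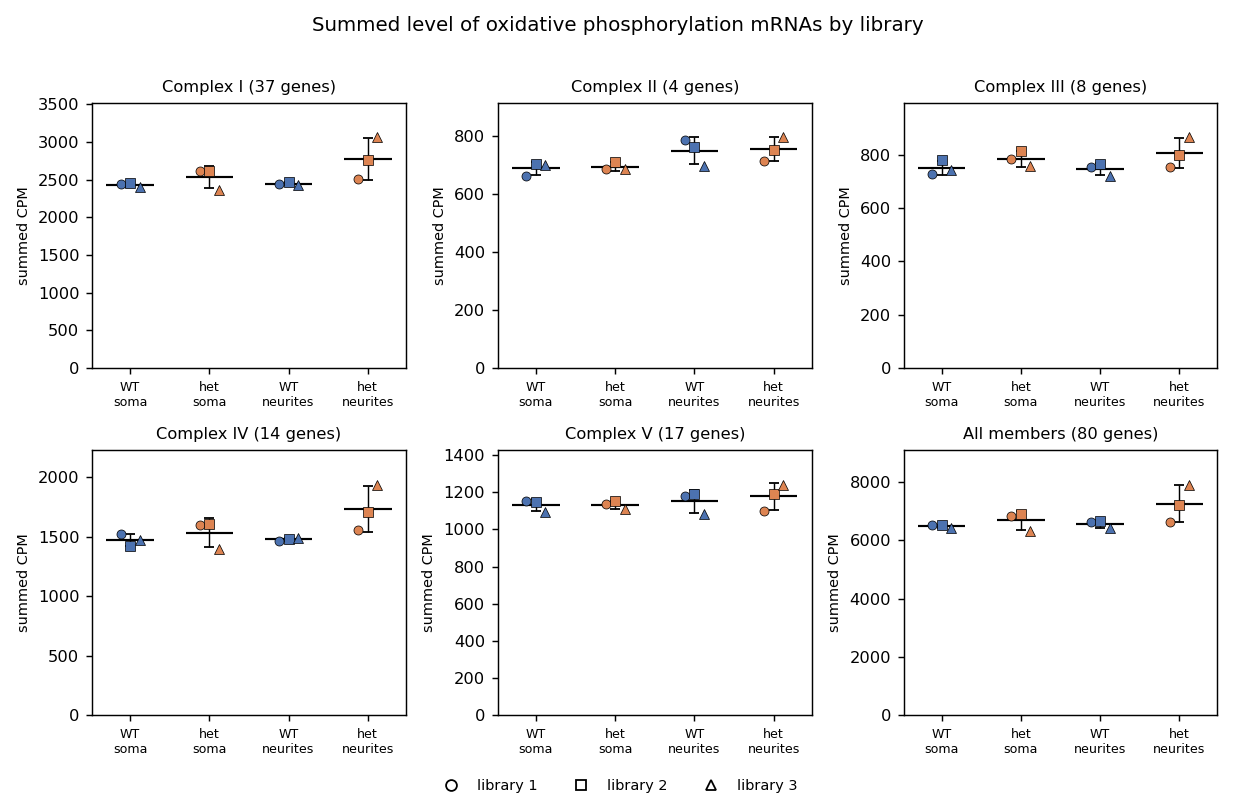
Summed CPM of the members of each complex and of all members (y axes, from 0) in each library, by group. Points are libraries, horizontal lines are means of 3 libraries and bars are SD, and in complexes I and IV all het neurite points lie above all WT neurite points.

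In WT cultures 1 gene of oxidative phosphorylation passed the test between neurites and soma, and a second with the replicate number as a block, while the members as a group lay where all genes lay. Of the counts of the second gene, Uqcr11, 26.0% lay on coding transcripts. The median log2 fold change of the 80 members, neurites over soma, was 0.0057, against 0.0059 over all 15990 genes tested, and 41 of 80 were positive. In edgeR's quasi-likelihood test, with p-values adjusted over all genes, 495 of 15990 genes passed an adjusted p of 0.05 (3.1%), 385 higher (2.41%) and 110 lower (0.688%). Of the 80 members 1 passed, Atp5g1, which was lower in neurites. With the replicate block, which compares soma and neurite libraries of the same number, 1489 genes passed, 936 higher and 553 lower, and 2 members: Atp5g1 (-0.63, adjusted p = 0.0140) and Uqcr11, which was higher in neurites (0.60, adjusted p = 0.0215). When libraries were scaled by their totals alone the split over all genes turned to 244 higher and 283 lower. At an unadjusted p under 0.05 stood 7 of the 80 members, against 3140 of all genes (19.6%). Libraries did not overlap for 11 members higher and 6 lower in neurites, against 12.4% and 9.96% of all genes. Fitted to the WT libraries alone, edgeR called 40 genes and no member.

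Atp5g1 (ENSMUSG00000006057.15), on the minus strand of chromosome 11 in GRCm38 from 96068852 to 96075670, codes for the c subunit of ATP synthase, the protein of the membrane ring that protons turn. In soma its level was 14.6, 19.7 and 16.1 CPM for WT and 18.4, 21.5 and 17.5 CPM for het. In neurites it was 9.44, 9.69 and 13.3 CPM for WT and 15.4, 16.6 and 18.4 CPM for het. The WT neurite libraries were the lowest 3 of the 12 and overlapped neither WT soma nor het neurites. In WT it was 1.54-fold lower in neurites (log2 fold change -0.62 ± 0.16 SE, edgeR adjusted p = 0.0489), and in het the difference was -0.19 ± 0.16 (adjusted p = 0.651). In neurites it was 1.54-fold higher in het than in WT (0.62 ± 0.16, adjusted p = 0.0484). Both comparisons share the WT neurite libraries. In the authors' deposited table its most counted transcript, ENSMUST00000107684, had a log2 fold change of 0.64 in neurites with a false discovery rate of 0.0346.

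Both calls were at the edge of the threshold, and neither passed when only the groups compared were fitted. The first passed in 8 of 21 alternative settings (adjusted p 0.0135 to 0.227), and of the 12 settings that leave out 1 library it passed in 2, those without WT neurite library 3 and without het neurite library 3. The second passed in 7 of 20 alternative settings (adjusted p 0.0104 to 0.194), and of the 12 that leave out 1 library in 2, those without WT soma library 2 and without het neurite library 1. Without het neurite library 3 it stood at 0.56 (adjusted p = 0.194). Its direction did not change in any of these settings.

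The c subunit is encoded by 3 genes, which differ in their import sequences. The reading frames of Atp5g1, Atp5g2 and Atp5g3 end in 79 codons, the stop included, with 0 amino acid differences between any pair, and the mature subunit lies in this stretch. Over these 237 bases Atp5g1 is 84.8% identical to Atp5g2 and 78.5% to Atp5g3, and Atp5g2 is 77.2% identical to Atp5g3. The longest run of identical bases is 21 between Atp5g1 and Atp5g2, and 11 between Atp5g1 and Atp5g3. The following 120 bases from within this stretch, 5′ to 3′ from the GENCODE M21 transcripts, are shown because the genes code for 1 protein here with different bases. Capitals mark positions where the 3 genes are not all the same.
Atp5g1: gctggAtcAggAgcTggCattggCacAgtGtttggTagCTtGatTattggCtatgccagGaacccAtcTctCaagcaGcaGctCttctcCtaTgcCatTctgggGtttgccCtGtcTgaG
Atp5g2: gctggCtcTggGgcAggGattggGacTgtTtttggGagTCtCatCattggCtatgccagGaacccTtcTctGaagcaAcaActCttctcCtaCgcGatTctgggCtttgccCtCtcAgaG
Atp5g3: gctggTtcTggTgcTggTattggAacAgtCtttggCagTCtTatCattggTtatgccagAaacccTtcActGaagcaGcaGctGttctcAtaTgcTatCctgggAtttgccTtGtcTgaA

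The other c subunit genes were not shown to differ. In soma Atp5g3 (chromosome 2) stood at 19.0, 22.2 and 19.4 CPM for WT, and in neurites at 20.7, 21.1 and 19.6 CPM for WT and 20.9 to 21.5 CPM for het. Its log2 fold change was 0.021 in WT neurites against soma and 0.045 in het against WT neurites, neither past the test. Of its counts 44.1% lay on coding transcripts. Atp5g2 (chromosome 15) had a mean of 21.8 counts per library on 1 transcript, which has 0 bases of its own in the annotation. Its WT neurite libraries ran from 0.34 to 1.67 CPM, and its log2 fold changes had SEs of 0.42 to 0.45 in the comparisons of 2 groups. Whether the 3 genes changed by different amounts was not tested.

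**Figure D3:**
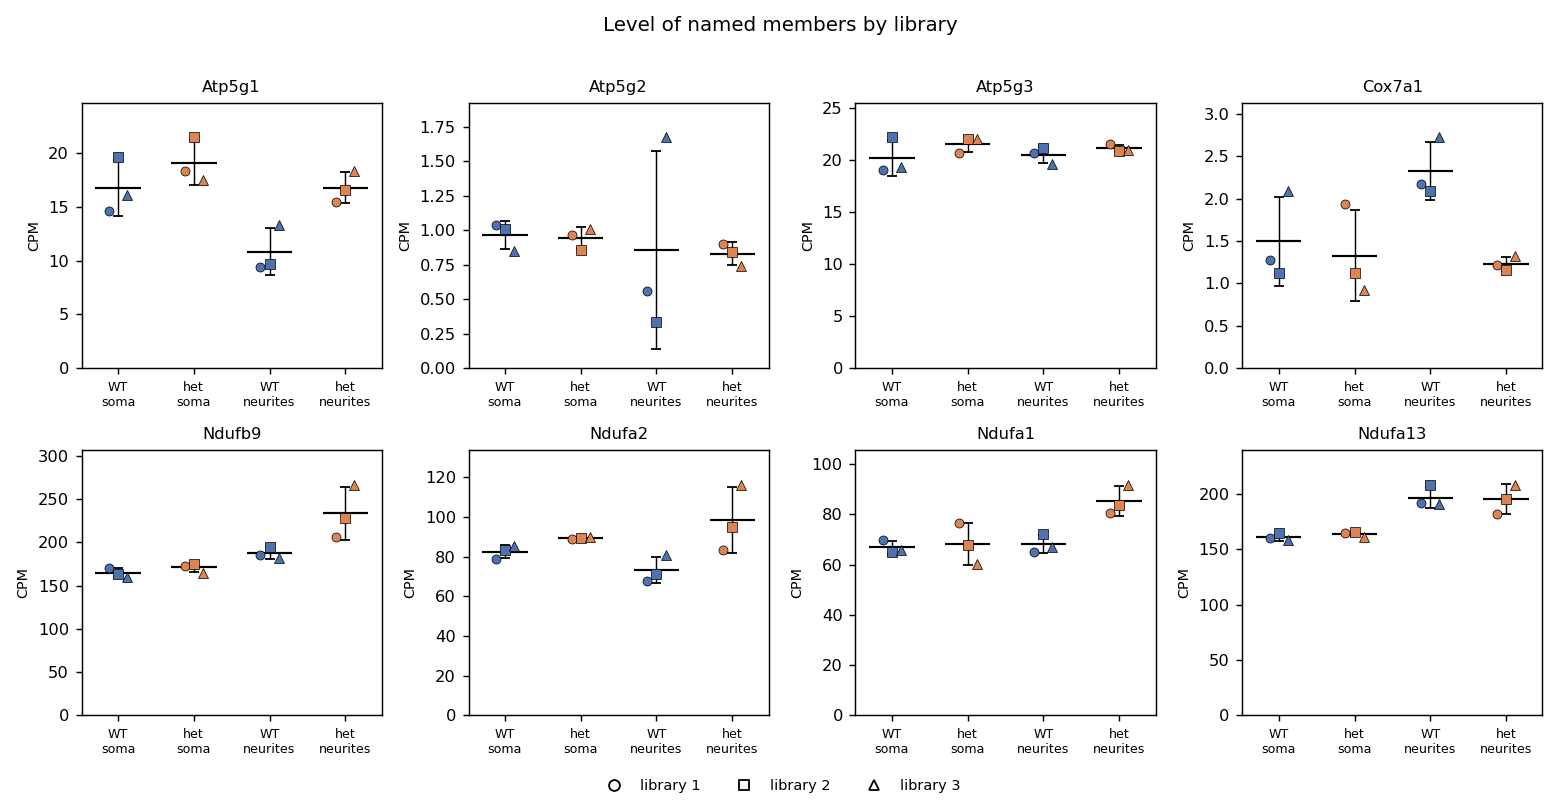
CPM of 8 members (y axes, from 0) in each library, by group, with means of 3 libraries as lines and SD as bars. Atp5g1 is lowest in WT neurites, Atp5g3 is nearly level, Cox7a1 is highest on average in WT neurites, and Ndufb9, Ndufa2 and Ndufa1 are highest in het neurite library 3.

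The sequence before the Atp5g1 start is shown because this gene was the only member called in 2 comparisons. In the RefSeq promoter table (GRCm38.p6), 66 of the 80 members had an entry, and the 250 bases before each start were searched on both strands. The CCAAT motif, a common promoter element, was found at least once in 43.9% of those members and in 39.5% of the 10876 tested genes with an entry. At least 5 copies in 1 window were found in 2 of the 66 members, Atp5b and Atp5g1, and in 0.423% of the tested genes. In Atp5g1 the 5 matches include CCAATTGG, which counts on both strands. The cut equals this gene's own count, so its place among the 2 members was fixed by the cut. The 200 bases from 250 to 51 before the start (chr11:96075682-96075881, minus strand) read as follows, with the matches in capitals.
Atp5g1 upstream: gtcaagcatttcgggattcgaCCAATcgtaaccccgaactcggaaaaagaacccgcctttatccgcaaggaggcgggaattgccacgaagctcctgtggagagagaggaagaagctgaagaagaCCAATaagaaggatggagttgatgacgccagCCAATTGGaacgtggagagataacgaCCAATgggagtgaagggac

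Other motifs linked to mitochondrial genes were counted in the same windows. The perfect palindrome bound by nuclear respiratory factor NRF1 was found in 4 members (Atp5g2, Atp5k, Cox6a1 and Ndufa11), 6.06% of those with an entry, against 1.78% of the tested genes. CCGGAAG, a core bound by ETS factors such as GABP, was found in 12 members (18.2% against 14.2%), and AAGATGGCG, a core bound by YY1, in 2 (3.03% against 1.36%). TATAAA was found in 5 (7.58% against 8.00%). A match is a description of the letters in the window and not a site.

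Among members that missed the threshold in WT, the small complex I subunit Ndufa13 was at 160, 164 and 158 CPM in soma and 192, 208 and 191 CPM in neurites, without overlap (log2 fold change 0.29 ± 0.08, edgeR adjusted p = 0.0747). It passed in DESeq2 (adjusted p = 0.0242) and not with the replicate block (adjusted p = 0.0674). The same difference in het was 0.25 ± 0.08 (adjusted p = 0.188), also without overlap. Uqcr11, a small subunit of complex III, was at 7.04, 4.69 and 5.70 CPM in soma and 9.93, 7.26 and 9.14 CPM in neurites (0.60 ± 0.18, adjusted p = 0.0791), with 26.0% of its counts on coding transcripts. It passed with the replicate block (above) and in DESeq2 (adjusted p = 0.0355), while on protein-coding transcripts only it stood at 0.34 (adjusted p = 0.672). Each neurite library lay above each soma library, by the least between 7.26 and 7.04 CPM.

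Uqcrh, the hinge protein of complex III, was at 25.7, 23.0 and 25.6 CPM in WT soma, and its neurite libraries were all higher, at 33.0, 33.6 and 32.2 CPM (0.41 ± 0.13, edgeR adjusted p = 0.0958). Of its counts 63.2% lay on retained-intron transcripts. Cox7a1, the heart and muscle form of a complex IV subunit, was at 1.27, 1.12 and 2.09 CPM in soma and 2.17, 2.08 and 2.72 CPM in neurites, with a narrow overlap (0.66 ± 0.31, adjusted p = 0.263). Lowest by p after Atp5g1 were Cox4i1 (-0.37 ± 0.19, adjusted p = 0.284) and Uqcrq, a ubiquinone-binding protein (-0.20 ± 0.12, adjusted p = 0.354). The SE of a member's log2 fold change was 0.12 at the median and reached 0.58 in members with few counts.

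In het cultures more members leaned toward neurites. Of the 80 members 55 had a positive log2 fold change of neurites over soma, with a median of 0.10, against -0.0050 over all genes tested. In edgeR 102 of 15990 genes passed (0.638%), 87 higher (0.544%) and 15 lower (0.0938%), and 1 member passed, Ndufb9, which was higher. At an unadjusted p under 0.05 stood 13 members, all higher, against 2301 of all genes (14.4%), of which 1221 were higher. Libraries did not overlap for 14 members higher and 3 lower, against 11.7% and 10.6% of all genes. With the replicate block 671 genes passed, and 1 member. Without het neurite library 3 the median was 0.017, 47 members were positive and 6 had an unadjusted p under 0.05. Without het neurite library 1 the median was 0.14 and 20 members, all higher, had an unadjusted p under 0.05, with 0 of all genes called. Without het soma library 1 or 2 the count over all genes was also 0, and without het soma library 3 it was 1.

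Ndufb9 (ENSMUSG00000022354.4), on the plus strand of chromosome 15 from 58933756 to 58939488, codes for a supernumerary subunit in the membrane arm of complex I. It was at 173, 175 and 165 CPM in het soma and 206, 228 and 267 CPM in het neurites. The libraries did not overlap, and library 3 was the highest. It was 1.37-fold higher in het neurites (log2 fold change 0.45 ± 0.10, edgeR adjusted p = 0.0488). In WT it was at 171, 163 and 160 CPM in soma and 185, 195 and 182 CPM in neurites, a difference in the same direction that did not pass (0.19 ± 0.10, adjusted p = 0.301). The difference between these changes, 0.26 ± 0.14, did not pass either (unadjusted p = 0.074, adjusted p = 1.00). The call in het passed in 7 of 21 alternative settings (adjusted p 0.0030 to 0.224), and of the 12 that leave out 1 library in 2, those that leave out WT neurite library 1 or 2. Without het neurite library 3 the value was 0.34 (adjusted p = 0.126). All its counts lay on 1 coding transcript.

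Other members higher in het neurites at an unadjusted p under 0.05 were Ndufb5, Uqcrh, Ndufa1, Ndufa13, Uqcr10, Uqcrb, Cox6b1, Cox5b, Ndufs4, Ndufs6, Sdhc and Ndufb4, of which none passed adjustment. Ndufa1, a complex I subunit encoded on the X chromosome, was at 76.5, 67.9 and 60.1 CPM in het soma and 80.5, 83.5 and 91.7 CPM in het neurites (0.32 ± 0.10, adjusted p = 0.162). Sdhc, a membrane anchor of complex II, was at 65.4, 66.7 and 61.3 CPM in soma and 68.9, 73.2 and 87.3 CPM in neurites (0.25 ± 0.11, adjusted p = 0.301). The lowest value was that of Cox4i2, the form of a complex IV subunit known from lung, at -0.52 ± 0.56 from 10.0 counts per library. Sdhc is the complex II member whose libraries did not overlap in either genotype. Of the core subunits of complex I, which carry the electron path, none of 7 passed and the median was -0.052 (-0.17 without het neurite library 3).

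Between genotypes in soma no member passed the test. The median log2 fold change of het over WT was 0.057, against 0.0086 over all genes, and 63 of 80 members were positive, against 51.5% of all genes. Without het soma library 3 the median was 0.10 and 70 members were positive, and without het soma library 1 it was 0.044 and 53 were positive. In edgeR 0 of 15990 genes passed (0%), with 1464 at an unadjusted p under 0.05, of which 1127 were lower, and DESeq2 called 280. Of the members 0 had an unadjusted p under 0.05, and neither DESeq2 nor limma voom called any. Fitted to the soma libraries alone, edgeR called 388 genes and no member. Libraries did not overlap for 6 members, all higher in het, against 8.86% of all genes higher and 11.9% lower. Values ran from -0.23 ± 0.17 for Ndufs3, a core subunit of complex I, to 0.40 ± 0.43 for Ndufb10, a membrane-arm subunit with 16.9 counts per library. Of all members 74 lay within 0.25 of 0 on the log2 scale. Het soma libraries 1 and 2 summed to 6823 and 6902 CPM, above every WT soma library, and library 3 to 6311 CPM, the lowest of the 12.

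In single transcripts of soma the authors' deposited table gave 3 of 208 member transcripts a false discovery rate under 0.05, and 2 of these were transcripts of Cox7c, a small subunit of complex IV on chromosome 13, that moved in opposite directions. ENSMUST00000132233, of 709 bases, had 95, 60 and 61 counts for WT and 69, 32 and 32 for het (log2 fold change -0.85 and false discovery rate 0.00368 in the authors' deposited table). ENSMUST00000078764, of 433 bases, had 6, 11 and 17 counts for WT and 27, 22 and 29 for het (1.14 and 0.0469 in the authors' deposited table). Another Cox7c transcript, ENSMUST00000131011, was the most counted of the gene and was not among those under 0.05. It had 82, 79 and 61 counts for WT and 130, 102 and 104 for het. Its false discovery rate in the authors' deposited table was 0.129. Summed over transcripts the gene differed by 0.10 ± 0.22 (edgeR adjusted p = 0.925). In neurites the authors' deposited table gave the first 2 transcripts false discovery rates of 0.952 and 0.917. How reads shared by these transcripts were divided is not given in the sources used here.

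In neurites most members were at higher values in het than in WT, by small amounts. The median log2 fold change of the 80 members was 0.14, against -0.013 over all genes tested, and 64 of 80 were positive, against 48.5% of all genes. In edgeR 523 of 15990 genes passed (3.27%), 79 higher (0.494%) and 444 lower (2.78%), and of the members 1 passed, Atp5g1, higher in het. Scaled by library totals alone, 95 genes were higher and 197 lower. At an unadjusted p under 0.05 stood 20 members, 19 higher and 1 lower, against 20.9% of all genes tested, where 1235 were higher and 2108 lower. Libraries of the genotypes did not overlap for 21 members higher and 1 lower in het, against 7.53% and 10.8% of all genes. Fitted to the neurite libraries alone, edgeR called no gene.

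The size of this lean moved with single libraries. Per library, the median over members of the log2 level minus each gene's mean was -0.029, -0.053 and -0.048 in WT neurites, and -0.0027, 0.093 and 0.25 in het neurites. The genotypes did not overlap, library 3 was the highest and library 1 was nearest to WT. Without het neurite library 3 the median fold change of the members was 0.084, 58 of 80 were positive, and 7 were higher and 3 lower at an unadjusted p under 0.05. Without it no gene of the whole table passed, and the same held without het neurite library 2 and without WT neurite library 3. Without het neurite library 1 the median was 0.23 and 5 members passed (Atp5g1, Ndufa2, Ndufa8, Ndufb9 and Sdhb), and without WT neurite library 2 it was 0.16 and 4 members passed (Atp5s, Cox8a, Ndufa1 and Ndufb9). The share of all genes called in these settings is not set beside these counts. They therefore do not show more calls among members than among other genes.

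By complex, the median in neurites was 0.19 for complex I with 34 of 37 members positive, 0.18 for complex IV with 9 of 14, 0.12 for complex III with 6 of 8, 0.091 for complex V with 13 of 17 and 0.0039 for complex II with 2 of 4. When library 3 of het neurites was left out the medians were 0.086 (29 of 37), 0.10 (10 of 14), 0.037 (6 of 8), 0.050 (12 of 17) and -0.034 (1 of 4) in the same order. In complex I, Ndufa2, a supernumerary subunit, was at 67.7, 71.3 and 80.6 CPM in WT neurites, and all het neurite libraries were higher, at 83.5, 95.0 and 116 CPM. The difference just missed the threshold (0.42 ± 0.11, edgeR adjusted p = 0.0520). Ndufb9 was at 0.32 ± 0.10 (adjusted p = 0.0811), Ndufa1 at 0.32 ± 0.10 (adjusted p = 0.0903) and Ndufa8, a disulphide-bonded subunit, at 0.31 ± 0.10 (adjusted p = 0.0909), each without overlap. DESeq2 called these 4 and Atp5g1, among 1130 genes that it called over the whole table. Leaving that library out gave 0.29 for Ndufa2 (edgeR adjusted p = 0.221), 0.21 for Ndufb9 (adjusted p = 0.275), 0.27 for Ndufa1 (adjusted p = 0.269) and 0.22 for Ndufa8 (adjusted p = 0.292). The core subunits of complex I had a median of 0.019, and their summed levels overlapped, with 177, 169 and 168 CPM for WT and 174, 182 and 209 CPM for het. Most of that sum was Ndufs8.

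In complex II no subunit passed, and whether the 4 differ among themselves was not tested. Sdhb, the iron-sulphur subunit, was at 102, 95.3 and 95.0 CPM for WT and 103, 116 and 133 CPM for het (0.27 ± 0.10, edgeR adjusted p = 0.133), without overlap. Sdha, the flavoprotein, stood at 404, 413 and 363 CPM for WT and 371, 399 and 374 CPM for het (-0.045). Sdhc was at 92.5, 84.1 and 78.9 CPM for WT and 68.9, 73.2 and 87.3 CPM for het (-0.15 ± 0.11, adjusted p = 0.429), and Sdhd, the other membrane anchor, at 0.053. Sdhb was at 0.17 and Sdhc at -0.26 without het neurite library 3.

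In complexes III and IV values of both signs stood beside each other, without a call. Uqcrq was at 22.5, 24.2 and 25.2 CPM for WT and 28.7, 28.1 and 35.1 CPM for het, without overlap (0.35 ± 0.12, edgeR adjusted p = 0.101), and Uqcr11 had the lowest value of complex III (-0.13). Cox8a and Cox7a2, the forms of small complex IV subunits found in most tissues, were at 0.30 and 0.27. Cox4i1 was at 0.47 ± 0.19 (adjusted p = 0.166), and 85.9% of its counts were on retained-intron transcripts. Cox7a1, the muscle form of the Cox7a2 subunit, was at 2.17, 2.08 and 2.72 CPM for WT and 1.22, 1.15 and 1.32 CPM for het (-0.93 ± 0.32, adjusted p = 0.119). It was the only member lower in het without overlap. Cox6a2, the muscle form of another subunit, was at 0.37 ± 0.37, and Cox4i2 at -0.85 ± 0.58.

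In ATP synthase the highest value was that of Atp5j2, subunit f, from 16.2 counts per library. It was at 0.42, 0.47 and 0.51 CPM for WT and 1.17, 0.81 and 0.95 CPM for het, without overlap (1.03 ± 0.39, edgeR adjusted p = 0.151). The 5 genes of the F1 head had a median of 0.091 (0.010 without het neurite library 3). Among them Atp5b, the catalytic beta subunit and the most counted member with a mean of 20473 counts per library, was at 934, 934 and 827 CPM for WT and 841, 915 and 947 CPM for het, which overlapped (adjusted p = 0.984). The 4 peripheral stalk genes had a median of 0.034. No member of either list passed.

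**Figure D4:**
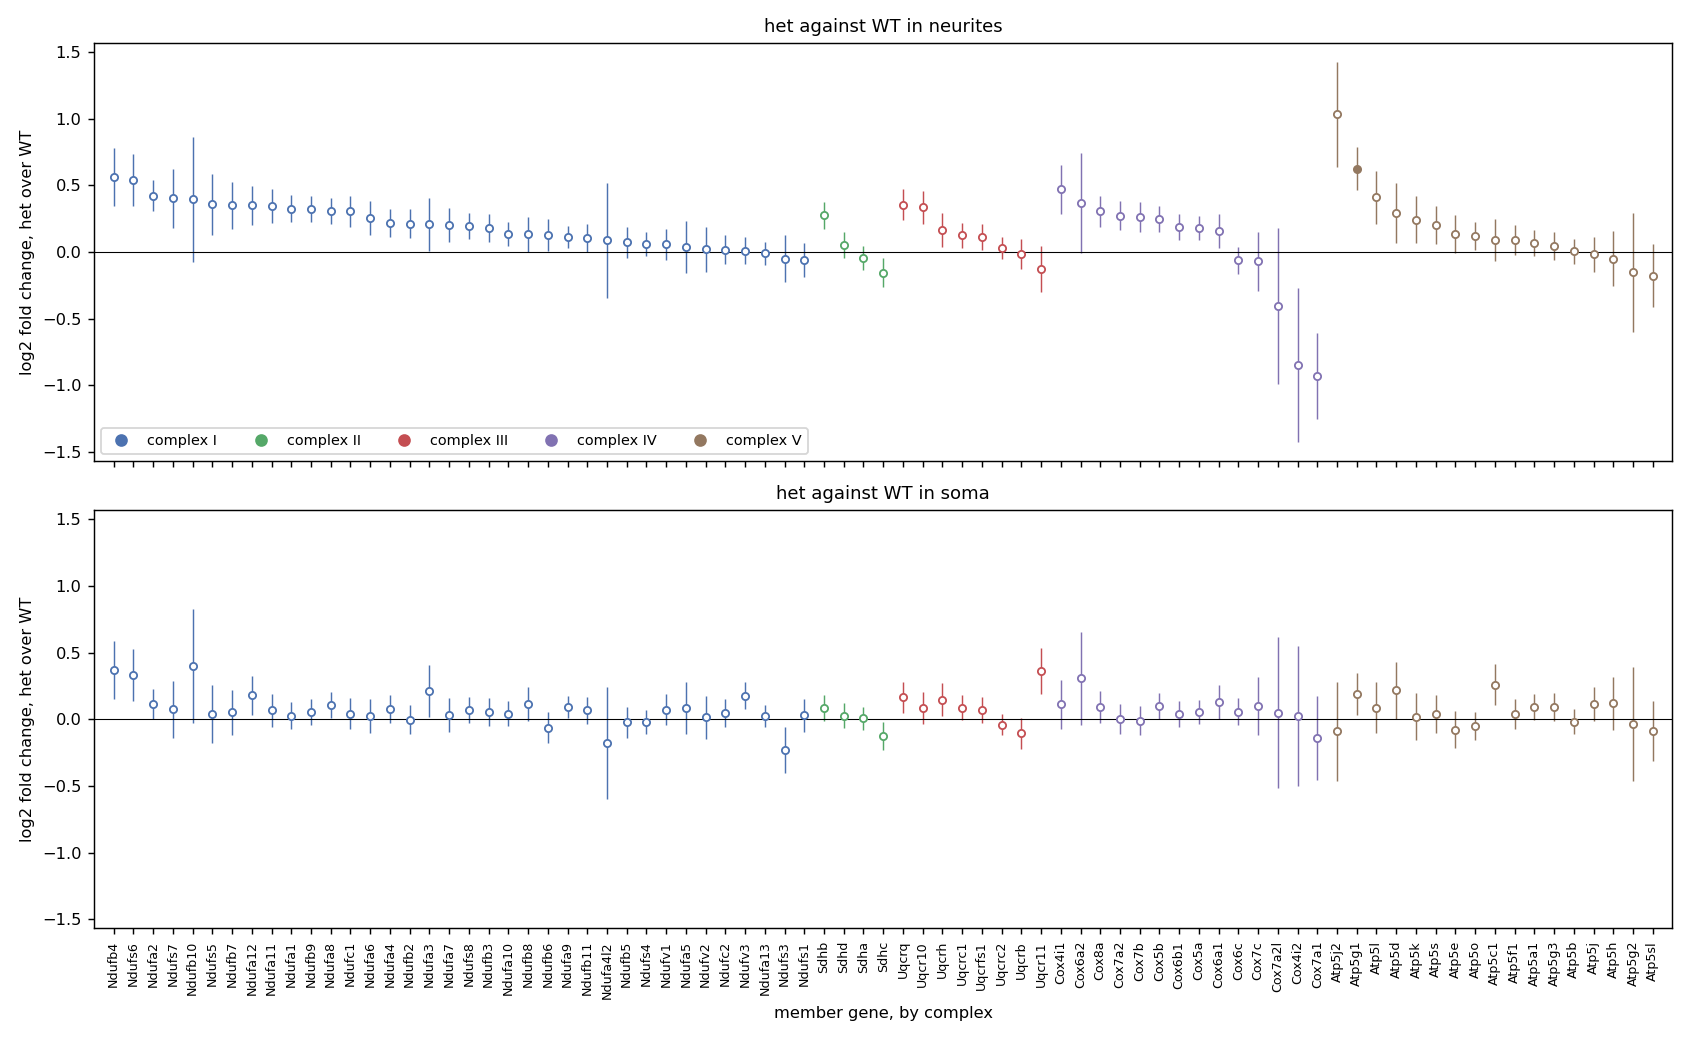
Log2 fold change of het over WT (y axis) of the members in neurites (top) and soma (bottom), ordered by complex and by the neurite value, with SE as bars and 1 of the 80 members not drawn. The filled point, Atp5g1 in neurites, is the only one past the threshold, and most complex I members lie above 0 in neurites.

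Markers of other cells moved with genotype in the same libraries. The 8 proliferation genes summed in neurites to 1023, 569 and 1007 CPM for WT and 479, 258 and 253 CPM for het, with a median log2 fold change of -1.26 and 4 of 8 called lower (edgeR). In soma they summed to 517, 457 and 670 CPM for WT and 257, 184 and 268 CPM for het (median -1.12, none called).

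In neurites 4 of 8 satellite glia markers were called lower in het (median -0.64; sums of 871 to 997 CPM for WT and 752 to 844 for het), as were 3 of 10 Schwann cell markers (median -0.67; 1609 to 1747 and 1415 to 1697 CPM). The 8 fibroblast markers had a median of -0.70 with none called (1290 to 4072 and 1042 to 2136 CPM), and the 7 tested of 9 vessel and muscle markers -0.97 with 1 called lower (1190 to 3071 and 917 to 1521 CPM). The 12 neuron markers had a median of 0.28 with 1 called higher (10361 to 13992 and 12564 to 16167 CPM). In WT they were at lower values in neurites than in soma (median -0.38, 2 of 12 called lower). Of 12 macrophage and leukocyte markers 8 were tested, without Aif1, Csf1r, Ptprc and Itgam, with a median of 0.28 and none called (26.6 to 60.9 and 30.3 to 77.5 CPM). None of these genes was called in neurites without het neurite library 3, where the medians were -1.22 for proliferation, -0.53 for satellite glia, -0.58 for Schwann cells, -0.51 for fibroblasts, -0.37 for vessels and muscle (8 tested), 0.29 for neurons and -0.19 for macrophages and leukocytes. In WT neurites against soma the median was 0.51 for satellite glia, with 1 of 8 called higher. It was 0.62 for vessels and muscle, with 1 of 7 called higher, and 0.43 for Schwann cells, with 2 of 10 higher and 1 lower. The proliferation, fibroblast, and macrophage and leukocyte lists had 0.57, 0.22 and -0.36, with none called. Between genotypes in soma the medians of het over WT were -0.45 for satellite glia, -0.33 for Schwann cells and -0.56 for fibroblasts. They were -0.35 for vessels and muscle, 0.18 for neurons and 0.35 for macrophages and leukocytes, with none called. The part of these shifts in the level of the members was not tested.

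**Figure D5:**
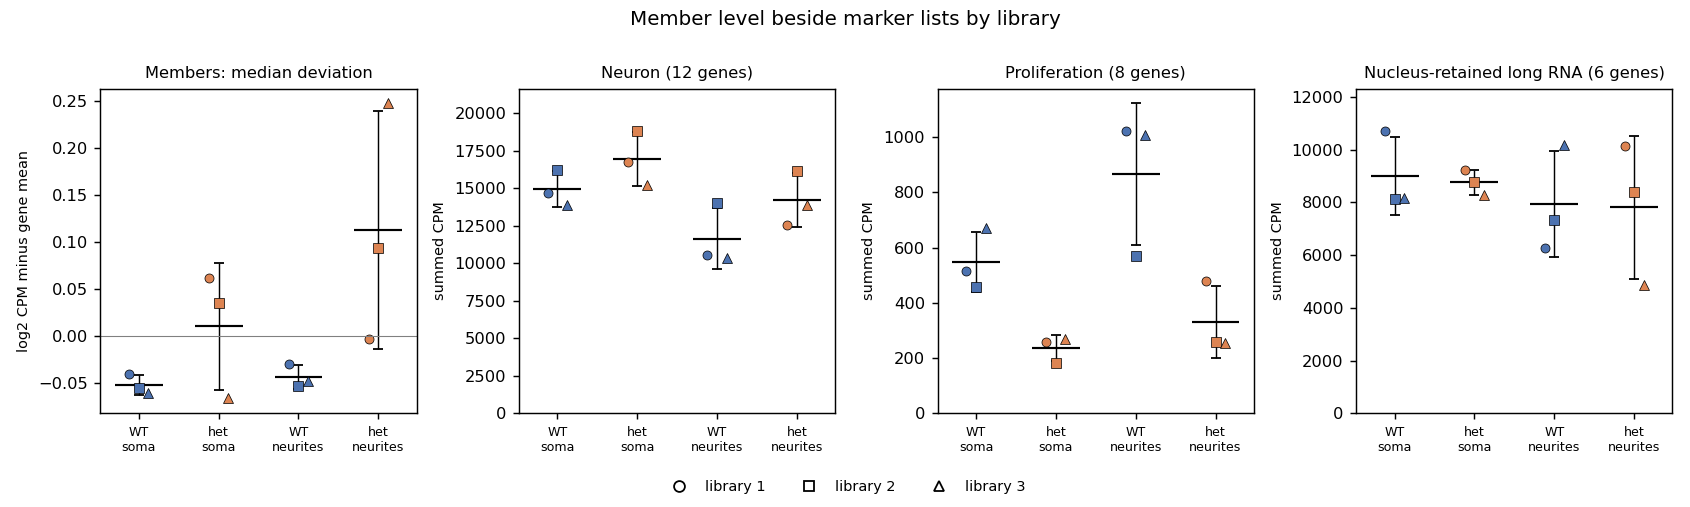
Median deviation of the 80 members from each gene's mean (log2, left) beside the summed CPM (from 0) of neuron, proliferation and nucleus-retained long RNA lists in each library, with means of 3 libraries as lines and SD as bars. Het neurite library 3 is highest for the members and lowest for nucleus-retained RNA, and proliferation genes are lower in het in both compartments.

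The change from soma to neurites was not shown to differ between genotypes for any member. The interaction, the het change minus the WT change, had a median of 0.091 over members and -0.017 over all genes, and 56 of 80 members were positive. It was 0.037 over members with 46 positive without het neurite library 3, and without het soma library 1 it was 0.16 with 57 positive. In edgeR 0 of 15990 genes passed (0%), with 202 at an unadjusted p under 0.05, and DESeq2 and limma voom called none. No member had an unadjusted p under 0.05. The smallest p-values belonged to Atp5j2 (1.12 ± 0.54), Ndufa1 (0.29 ± 0.14) and Uqcr11 (-0.49 ± 0.25), and Atp5g1 stood at 0.44 ± 0.22. The median SE of a member was 0.17 here, wider than in the comparisons of 2 groups.

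Members are short: the most counted transcript had a median length of 859 bases, against 2667 over all genes with a length. In het against WT neurites, genes whose main transcript was under 1000 bases had a median log2 fold change of 0.047 (2525 genes), and longer ones -0.024. Among the members the values were 0.19 for the 49 under 1000 bases and 0.087 for the 31 longer ones. With library 3 of het neurites left out these medians were 0.0081 and -0.011 over all genes and 0.10 and 0.013 over the members. Spearman's rho of fold change with transcript length was -0.12 over all genes and -0.27 over the members (-0.039 and -0.22 without that library), given as a description, since genes of the same libraries are not independent. With coding length over members it was -0.29 in that comparison and -0.39 in het neurites against het soma (-0.28 and -0.29 without that library). In WT neurites against soma it was 0.027 with transcript length over members. The part of length in the members' values was not tested.

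For the 9 members with a single annotated transcript, levels per length can be set side by side. In WT soma these were, in CPM per kilobase, 160 ± 5.94 for Ndufa1, 144 ± 5.61 for Ndufa2, 132 ± 1.37 for Sdhd, 129 ± 2.47 for Ndufa13 and 121 ± 0.852 for Ndufa8 (mean ± SD, n = 3). Below them came Ndufb3 at 96.6 ± 8.73, Uqcrfs1, the Rieske iron-sulphur protein of complex III, at 93.4 ± 1.64, and Ndufb11 at 88.3 ± 7.12. Sdhd and Ndufa13 overlapped, as did the last 3. Cox6a2, the muscle form, was at 1.56 ± 0.374. In het neurites Ndufa1 was at 203 ± 13.8 and Cox6a2 at 1.74 ± 0.336. Ndufa1 was first in all 4 groups by mean.

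The pathways around the respiratory chain are set beside the share called over all genes, which was 3.27% in het against WT neurites and 3.1% in WT neurites against soma, so that 1 call among 43 genes is near the background. Of 43 tested assembly factors, which build the complexes but are not part of them, 1 was higher in het neurites than in WT neurites and the median was 0.16 (0.048 without het neurite library 3). That gene, Sdhaf3, which helps assemble complex II, had a mean in neurites of 11.6 CPM for WT and 18.3 CPM for het (0.66 ± 0.13, edgeR adjusted p = 0.0215), and it was also lower in WT neurites than in WT soma (-0.50 ± 0.13, adjusted p = 0.0448). Polg, the polymerase of mitochondrial DNA, was the 1 gene called of 14 in the list of mitochondrial genome maintenance, and it was lower in het neurites (-0.59 ± 0.13, adjusted p = 0.0302). Neither genotype difference passed without het neurite library 3 (0.56 for Sdhaf3 and -0.64 for Polg, adjusted p = 0.117 for both). The 16 glycolysis genes had a median of 0.17, against 0.14 for the members, with none called. The 17 citric acid cycle genes had 0.057, the 22 import genes 0.052 and the 8 regulators of mitochondrial biogenesis -0.053, with none called. Without het neurite library 3 the glycolysis median was 0.17, against 0.084 for the members. The medians were then 0.0088 for the citric acid cycle, -0.0014 for import and -0.038 for the regulators. In WT neurites against soma the import chaperone Hspd1 was higher (0.54 ± 0.11, adjusted p = 0.0157) and the glycolytic enzyme Pkm was lower (-0.37 ± 0.09, adjusted p = 0.0399). No gene of these lists was called in soma between genotypes.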

How the data were processed

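RNA was depleted of ribosomal RNA and sequenced with a stranded kit, per the labels' protocols. The submitters' processing notes name CASAVA 1.8.2, edgeR and mm10 (GRCm38), while no source used here names the aligner or says how reads were counted. The authors deposited 1 table per compartment, with raw counts per Ensembl transcript and library. Per the file headers, these tables also hold the authors' log2 fold changes of het over WT and, as deposited, a p-value with its false discovery rate. The other 24 per-sample columns were not used, and no mitochondrially encoded transcript was listed.

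Counts were summed per gene over transcripts in both tables, leaving out those without a gene name (0.574% to 0.694% of counts). After filterByExpr and TMM scaling, edgeR 4.0.16 (R 4.3.3) fitted robust quasi-likelihood models to all 12 libraries, with a mean for each of the 4 groups. Tests were 2-sided, with Benjamini-Hochberg adjustment over 15990 genes and a threshold of 0.05. SE is the size of the log2 fold change over the square root of F. CPM use TMM-scaled library sizes. An observed 0 allows up to 3 counts, 0.0905 to 0.21 CPM here, for counting error only.

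Transcript classes, lengths and positions came from GENCODE M21, on the build the notes name, where 99.0% of the shared transcripts were found by identifier. Promoters came from RefSeq (GRCm38.p6). Alternatives were a replicate block, leaving out each library, DESeq2 1.42.0 size factors or Wald test, limma 3.58.1 voom, library totals, no filter, only the groups compared, all transcripts, and, added after seeing the data, protein-coding transcripts only. Same-numbered soma and neurite libraries deviated together from their group means in WT (r = 0.28, 0.34 and 0.23 over genes) but not in every het pair (0.20, 0.26 and 0.050). The labels do not say what a number shares, so the main test left the libraries unpaired in both genotypes. The replicate block was an alternative. Because of this check its WT results are given beside the main ones, and for het its counts of genes and members that passed. Members, lists and contrasts were chosen with earlier results of these data known. Members named are those past the threshold, the 3 with the smallest p in each direction, and those of role lists (core subunits, complex II, complex III, F1, stalk, c subunit and paralogous families). Others, such as those whose groups do not overlap and the Cox7c transcripts, were named after their values were seen. Cox6b2, Cox7b2, Cox8b and Cox8c were not among the genes tested. Of the pathway lists, electron carriers (15 genes tested) and metabolite carriers (8) had no gene called in any comparison. The values of 1 member, which is kept in all counts and sums, are not reported here. Levels between genes were restricted to members with 1 annotated transcript. The p-values measure the spread between libraries, estimated over all 4 groups together and not from the compared groups alone.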

Additional observations from a re-analysis of the deposited data

How the results depend on the processing

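The count of members called moved between settings in 3 comparisons. For WT neurites against WT soma it was 2 with the replicate block and 3 by DESeq2's Wald test, and 0 by limma voom, with only the groups compared and with protein-coding transcripts only. For het neurites against het soma it was 0 with library totals only, with no filter on low counts, by limma voom and with only the groups compared. For het against WT in neurites it was 5 by DESeq2's Wald test and 0 with library totals only, by limma voom and with only the groups compared. Leaving out 1 library at a time gave 0 to 1, 0 to 1 and 0 to 5 in these comparisons, and 0 for het against WT in soma and the interaction. In the same settings the median of the members ran from -0.021 to 0.018, from 0.017 to 0.14, from 0.084 to 0.23, from 0.041 to 0.10 and from 0.037 to 0.16. With library totals only the interaction median was 0.17. Those totals also gave sums of 2468 CPM (complex I, WT soma), 2369 (complex I, WT neurites), 722 (complex III, WT neurites), 1433 (complex IV, WT neurites), 6575 (all members, WT soma) and 6362 (all members, WT neurites). Uqcrb in soma turned to 0.0085 without het soma library 3, in a range of -0.22 to 0.0085 over single libraries left out. The count of all genes called in WT neurites against soma was 972 by DESeq2 and 40 with only the groups compared, against 495. For het against WT in neurites it was 1130 and 0, against 523, for het neurites against soma 399 by DESeq2, against 102, and for soma 388 with only the groups compared, against 0. The cause of each change was not tested. Each soma library correlated best with the neurite library of its own number, a hint of pairing from the data and not from the design. With the replicate block 1489 genes were called in WT and 671 in het, with members 2 and 1, and none in the interaction. Het against WT could not be fitted with the block, since the numbers lie within genotypes. The precision of members with few counts is limited by depth.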
